A study of Mus musculus with 15 samples.

Results

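The subunits of the mitochondrial respiratory chain and of ATP synthase were followed in pancreatic islets of NOD females at 5 ages. Members were chosen by name, as every gene of the count table called Ndufa, Ndufb, Ndufc, Ndufs, Ndufv, Sdha to Sdhd, Uqcr, Cox4i, Cox5 to Cox8, Atp5, mt-Nd, mt-Co, mt-Cytb or mt-Atp. The Ndufaf assembly factors were left out, as were 7 pseudogene names with -ps, each of which had 0 counts. This gave 98 of the 48709 genes listed, with 43 in complex I, 4 in complex II, 9 in complex III, 23 in complex IV and 19 in complex V. Of these, 13 are encoded in mitochondrial DNA and 85 in the nucleus. Ndufa4 and Ndufa4l2 were counted with complex IV, where the Ndufa4 protein resides. The names of 2 members, Atp5s and Atp5sl, belong to proteins that are not ATP synthase subunits in the strict sense (Atp5sl is now called DMAC2, a complex I assembly factor). The study took islets from NOD/ShiLtJ females at ages from 4 to 12 weeks, every 2 weeks, with 3 untreated mice per age and 1 library per mouse, with no other strain and no treatment arm. Islets of this strain take up immune cells ahead of autoimmune diabetes, and each library holds RNA of whole isolated islets with whatever cells lay in or on them. Libraries were made from polyadenylated RNA and held 25407492 to 41616275 counts, with a median of 28004882, and members took 2.69% to 3.54% of them. No batch or processing date is given in the labels.

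The respiratory chain passes electrons from NADH (through complex I) and succinate (through complex II) to ubiquinone, then through complex III and cytochrome c to complex IV, which reduces oxygen. Complexes I, III and IV pump protons that drive ATP synthase, complex V. Mitochondrial DNA encodes core subunits of each of these except complex II, as polycistronic transcripts that are cut into messengers, and the nucleus encodes the rest. In the beta cell, ATP made by this chain after glucose uptake closes potassium channels and so triggers insulin release, which makes the chain part of how islets sense glucose.

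Levels between genes were compared per length, as the TPM deposited by the authors, which divide each count by transcript length and scale all genes of a library to a fixed total. The mitochondrial messengers led by far, with mt-Co3 at a mean of 9672 TPM over the 15 mice, mt-Co1 at 9196, mt-Co2 at 9029 and mt-Atp6 at 7998. Among nuclear members, the small complex IV subunit Cox8a was listed at 603 TPM, the ATP synthase subunits Atp5l at 480.0 and Atp5a1 at 352, and Cox6a1 at 394. Ndufa1 of complex I was listed at 289 TPM, Uqcrb of complex III at 163 and Sdhd of complex II at 131. The deposited counts and TPM imply the gene length that was used, which for Ndufb7, for example, came to 4522 bases against 623 in its principal GENCODE messenger. The order of nuclear members therefore depends on the length used. Divided by the length of the principal messenger in kilobases, mean CPM (counts scaled to library size) put Atp5e at 305 and Atp5b at 285 ahead of Cox8a at 273. It also put Uqcrh at 130.4 ahead of Uqcrb at 123, and Sdha at 71.1 ahead of Sdhd at 62.9. All 13 mt-encoded members together made 5.71% ± 0.66 (SD, n = 3) of TPM at 4 weeks, 5.64% ± 0.42 at 6, 5.95% ± 0.30 at 8, 5.25% ± 0.34 at 10 and 5.81% ± 0.31 at 12 weeks. The nuclear members made 0.885% ± 0.071, 0.830% ± 0.039, 0.840% ± 0.060, 1.01% ± 0.038 and 0.987% ± 0.069 at the same ages. The mt-encoded share at 10 weeks, 4.93% to 5.60%, lay below that of all 3 mice at 8 weeks, 5.62% to 6.18%, and overlapped those of the other ages, while the nuclear share was higher in all 3 mice of 10 weeks than in any of 4, 6 or 8 weeks.

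Counting had visible limits among the mt-encoded members. mt-Atp8 (mitochondrial bases 7766 to 7969) was listed at 161 TPM and mt-Atp6 (7927 to 8607) at 7998 TPM, although both are read from 1 bicistronic messenger on the plus strand. Their reading frames share 43 bases, mm10 chrMT:7927-7969, printed here because reads that cover them cannot be given to either gene alone, with the start codon of mt-Atp6 in capitals.
mt-Atp8 and mt-Atp6 overlap: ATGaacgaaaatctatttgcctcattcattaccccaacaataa
How the counting treated reads over both genes is not given in the sources used here, so values of mt-Atp8 are uncertain, and the same holds to a lesser extent for mt-Nd4l, which shares 7 bases with mt-Nd4. mt-Nd6 shares 14 bases with mt-Nd5 on the opposite strand, and whether counting used strand is not given either. The other 24 genes of the mitochondrial chromosome, its ribosomal and transfer RNAs, had 0 counts in all 15 libraries.

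Markers of other cell types changed with age in these islets. The 22 leukocyte markers found in the count table, of 23 listed, summed to 305, 126 and 87.4 CPM (counts scaled to a fixed library size, here with the trimmed mean of M values, TMM) in the 4-week-old mice and to 2268, 2267 and 2646 in the 12-week-old mice, and 22 of the 22 that passed the filter on low counts rose from 4 to 12 weeks. Ptprc, which encodes the pan-leukocyte protein CD45, was at 34.6, 8.68 and 4.52 CPM at 4 weeks and 322, 317 and 414 at 12 weeks. The 12 islet endocrine genes summed to 23137, 22467 and 23545 CPM at 4 weeks, with Chga, a secretory granule protein, as the most abundant, and to 13382, 13961 and 11241 at 12 weeks, and 11 of 12 fell. Mesenchymal markers also rose, 8 of 10 from 4 to 12 weeks, and 3 of 8 endothelial markers rose while 1 fell. Marker counts from 4 to 12 weeks stand beside 26.3% of all genes higher and 27.2% lower. Acinar markers differed between mice of the same age, from 1419.9 to 16684 CPM in sum over all libraries, and 0 of 12 passed the test in any comparison by edgeR, with 0 at an unadjusted p under 0.05. Of the defining brown fat and muscle genes, Ucp1 was at 0 to 0.19 CPM and Ckm at 0 to 0.10 CPM in every library. Of the brown fat list 3 of 6 passed the filter and 2 rose, Fabp4 and Dio2, of the striated muscle list 3 of 8 passed and 1 rose and 1 fell. The intestinal genes set 2 libraries apart. The 7 of the list other than Vil1, which was at 32.9 to 83.2 CPM in every library, summed to 342 CPM in replicate 1 of the 12-week-old mice and 45.2 in replicate 2 of the 6-week-old mice, and to between 0.0357 and 0.368 in the other 13. Alpi, intestinal alkaline phosphatase, was at 117 and 12.1 CPM in these 2 libraries and at 0 in all others. The filter, which asks for counts in 3 libraries, left all 7 untested, and Vil1 was not called. Results are therefore also given without these 2 libraries, a setting chosen after the data were seen. Fewer endocrine cells and less RNA per cell cannot be told apart in whole islets, and the part of these shifts in the changes of the members was not tested. A fit with a leukocyte covariate is given as a further setting. The mean log2 CPM of the leukocyte markers was at most 2.25 at 4 weeks and at least 5.88 at 12 weeks. That fit therefore cannot separate leukocyte level from age between these ends.

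Across 4 and 12 weeks, the ends of the series, most members were modestly lower at 12 weeks. The filter on low counts kept 95 of the 98 members, leaving out Cox7b2, Cox8b and Cox8c, isoforms known from testis, heart or muscle, which had 9, 13 and 0 counts in all 15 libraries together. With edgeR's quasi-likelihood test and Benjamini-Hochberg adjustment over 16554 genes, 45 members fell and 3 rose (adjusted p under 0.05), while 53.5% of all genes passed, 27.2% of all genes being lower and 26.3% higher. At an unadjusted p under 0.05 there were 57 of 95, beside 59.3% of all genes. In this fit the share of members that passed was thus near that of all genes, and most of the calls were in the lower direction. The median log2 fold change of the 95 members was -0.22, that of all genes -0.048, and 81 of 95 members lay below the median of all genes. These directions are relative to the TMM scaling. With library totals and no TMM factor the median of all genes moved up by 0.25, the median of the members turned to 0.021 and 4 members fell and 12 rose. Relative to the median of all genes, the members stood at -0.17 with TMM and -0.18 with library totals. By the study's own rule for DEGs, a fold change of at least 1.5 with an unadjusted p under 0.05, which 31.9% of genes met, 20.9% upward and 11.0% downward, 3 members were higher (Cox5a, Cox6a2, Cox7a1) and 3 lower, with mt-Nd3 and Ndufa1 among them. The count of 48 varied with single mice, at 23 without replicate 3 of the 12-week-old mice and 24 without replicate 3 of the 4-week-old mice. How many of all genes were called in these refits is not reported here. With the mean leukocyte marker level of each mouse as a covariate, 0 of the 95 members and 0 of all 16554 genes passed by edgeR. The median of the members was then -0.070 and that of all genes -0.065, so that relative to all genes the members stood at -0.0046. Without the covariate, leaving out single mice gave -0.14 (without replicate 3 of the 12-week-old mice) to -0.26 (without replicate 1) in place of -0.17 for the relative value, and for the nuclear members alone -0.094 to -0.24 in place of -0.16. Leaving out the 2 libraries with intestinal genes, 54 members fell and 1 rose, 38 of them among the 48, and the relative value was -0.26. Of the 16710 genes tested under that setting, 3939 fell and 4004 rose. The calls among the mt-encoded members then went from 9 to 3, with mt-Nd2, mt-Nd4, mt-Nd5, mt-Nd6, mt-Cytb and mt-Co2 missing the threshold (adjusted p from 0.0561 to 0.0946), and those among the nuclear members from 39 to 52. The log2 fold changes of the mt-encoded members that missed it moved little. They ran from -0.29 for mt-Nd2 to -0.45 for mt-Nd6, in place of -0.33 and -0.51.

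**Figure D1:**
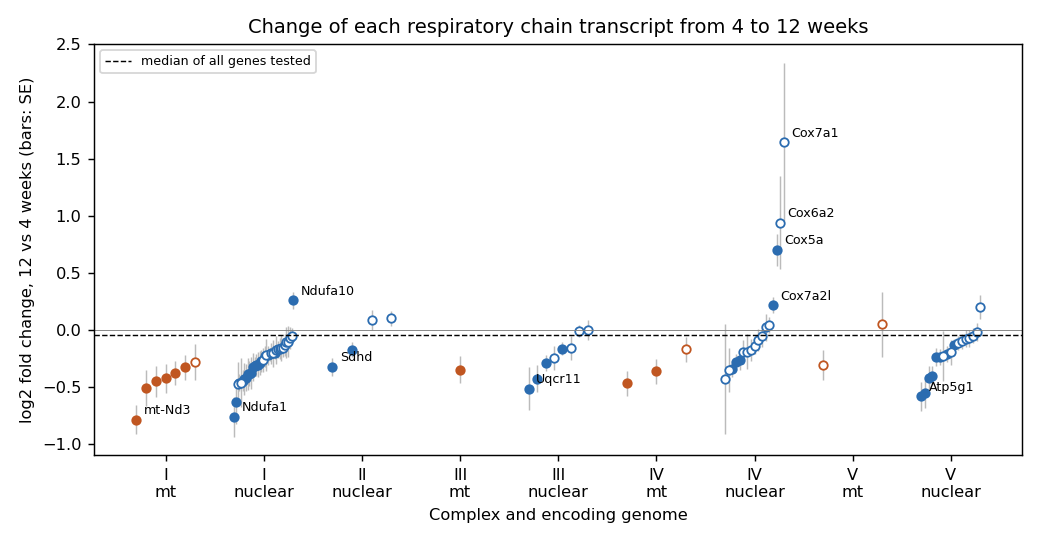
Log2 fold change from 4 to 12 weeks (y axis, TMM scale) of the 95 members that passed the filter, by complex and encoding genome (x axis), with bars for the SE, filled symbols for an adjusted p under 0.05 and a dashed line at the median of all genes, -0.048. Most members lie below the line, from mt-Nd3 at -0.79 upward, and the complex IV genes Cox5a, Cox6a2 and Cox7a1 lie farthest above it, Cox6a2 and Cox7a1 with wide errors. With library totals every point shifts upward and the median of the members is 0.021.

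Complex I, the NADH dehydrogenase that takes in most of the electrons, had 25 of 43 members lower and 1 higher on the TMM scale. Of all genes, 27.2% were lower and 26.3% higher. Its 7 mt-encoded subunits form the proton-pumping membrane arm, and 6 of them fell, mt-Nd4l at -0.28 (SE 0.16, adjusted p = 0.144) being the exception. mt-Nd3 (mitochondrial bases 9459 to 9806, plus strand) was at 445, 421 and 475 CPM in the 4-week-old mice, 357, 405 and 359 at 6 weeks, 382, 307 and 315 at 8, 232, 269 and 332 at 10 and 283, 263 and 232 at 12 weeks. All 12-week values lay below all 4-week values, and the log2 fold change was -0.79 (SE 0.13, adjusted p = 0.000521), the most negative of the 95 members. Each of the others moved less, from -0.51 for mt-Nd6, the single messenger read from the minus strand, through -0.45 for mt-Nd5, -0.42 for mt-Nd1 and -0.38 for mt-Nd4 to -0.33 for mt-Nd2, with adjusted p from 0.0114 to 0.0218. Within a library, where scaling cancels, mt-Nd3 relative to mt-Nd4 was -2.31 ± 0.21 (log2, SD, n = 3) at 4 weeks and -2.73 ± 0.21 at 12 weeks, and the groups did not overlap (exact two-sided permutation test, p = 0.1, the smallest that 3 against 3 allows), although the nearest mice were both at -2.49. Relative to mt-Co3 it was -3.19 ± 0.19 and -3.52 ± 0.15, with overlapping groups (same exact test, p = 0.2). mt-Nd3 was chosen for these ratios with its change known, so the tests give no separate evidence of it.

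Among the 36 nuclear subunits of complex I, 19 fell and 1 rose, beside 27.2% of all genes lower and 26.3% higher. Ndufa1 (chrX:37187588-37191163, minus strand), a small membrane-anchored accessory subunit whose loss blocks assembly, was at 75.0, 70.8 and 82.6 CPM at 4 weeks and 66.1, 70.0 and 60.2 at 6, and at 50.0, 35.0 and 43.9 at 8 weeks, 41.6, 53.0 and 61.1 at 10 and 56.6, 40.3 and 37.9 at 12. The lower level was already present at 8 weeks, and from 4 to 12 weeks the log2 fold change was -0.76 (SE 0.17, adjusted p = 0.00301). Ndufc2, which joins the membrane arm, was at 50.4, 45.7 and 46.0 CPM at 4 weeks and 38.5, 32.9 and 31.8 at 12 weeks, a change of -0.46 (SE 0.078, adjusted p = 0.000599) without overlap between the groups. Ndufa11 stood at 52.1, 49.2 and 53.0 and 40.7, 36.3 and 36.4 CPM at the same ages, a change of -0.44 (SE 0.088, adjusted p = 0.00144). Ndufs1, the largest iron-sulfur subunit, was at 85.8, 85.2 and 89.7 and 76.7, 75.8 and 72.1 CPM, a change of -0.22 (SE 0.060, adjusted p = 0.00925). Ndufa10 (chr1:92439010-92473860, minus strand), a matrix-side accessory subunit, went the other way, from 40.8, 36.0 and 40.1 CPM to 51.7, 42.0 and 46.2, a change of 0.26 (SE 0.076, adjusted p = 0.0121). It missed the threshold without replicate 2 of the 4-week-old mice (0.20) or without replicate 1 of the 12-week-old mice (0.18). With library totals, mt-Nd3, Ndufa1 and Ndufc2 were still called lower, Ndufa11 and the other mt-encoded subunits were not, and Ndufs1 changed sign (0.030).

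Complex II, succinate dehydrogenase, is the complex without mt-encoded subunits and also belongs to the tricarboxylic acid cycle. Its membrane anchors fell, Sdhd from 85.9, 86.1 and 86.3 CPM at 4 weeks to 75.5, 65.9 and 65.1 at 12, a log2 fold change of -0.32 (SE 0.079, adjusted p = 0.00455). Sdhc fell from 74.7, 72.3 and 77.9 to 72.7, 64.1 and 62.7, a change of -0.17 (SE 0.063, adjusted p = 0.0351). The catalytic flavoprotein Sdha was at 209, 189 and 189 CPM at 4 weeks and 227, 205 and 196 at 12, and the iron-sulfur subunit Sdhb at 51.9, 49.6 and 52.8 and 63.0, 50.6 and 50.0. Their log2 fold changes were 0.10 (SE 0.066, adjusted p = 0.214) and 0.085 (SE 0.086, adjusted p = 0.425), with overlapping groups. With library totals the value of Sdhc turned to 0.072, so its direction depended on the scaling.

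In complex III, which hands electrons to cytochrome c, 5 of 9 members fell and 0 rose by edgeR, beside 27.2% of all genes lower and 26.3% higher. mt-Cytb, the cytochrome b core, was at 2373, 3007 and 3308 CPM at 4 weeks, 2918, 2782 and 2718 at 8, 1891, 2094 and 2271 at 10 and 2197, 2506 and 2120.2 at 12 weeks. Its change from 4 to 12 weeks was -0.35 (SE 0.12, adjusted p = 0.0263), and only replicate 1 of the 4-week-old mice was within the range of the older group. Uqcrfs1, the Rieske iron-sulfur protein, changed by -0.29 (SE 0.073, adjusted p = 0.0056), and Uqcrb, a ubiquinone-binding accessory subunit, by -0.43 (SE 0.12, adjusted p = 0.00946). Uqcrh, the hinge protein that docks cytochrome c, was at 79.3, 72.6 and 74.9 CPM at 4 weeks, 61.8, 68.8 and 66.6 at 6 and 73.6, 78.0 and 73.6 at 12, so that its difference across the 5 ages jointly (adjusted p = 0.0166) came with -0.011 (SE 0.054, adjusted p = 0.883) between the ends. All 3 of its 6-week values lay below all 4-week and all 12-week values.

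In complex IV, cytochrome c oxidase, 5 of the 20 members that passed the filter were lower (25%) and 2 higher (10%), beside 27.2% of all genes lower and 26.3% higher, so that the lower share was near that of all genes. The catalytic core is mt-encoded, and mt-Co3 changed by -0.47 (SE 0.11, adjusted p = 0.00417), mt-Co2 by -0.36 (SE 0.11, adjusted p = 0.0138) and mt-Co1 by -0.17 (SE 0.11, adjusted p = 0.21). Cox5a (chr9:57521232-57532424, plus strand), a nuclear subunit on the matrix side, rose. Its CPM was 34.5, 27.2 and 28.1 at 4 weeks, 29.3, 31.2 and 29.8 at 6, 30.0, 31.0 and 36.1 at 8, 49.2, 48.6 and 38.3 at 10 and 57.8, 40.2 and 48.0 at 12 weeks. All values at 10 and 12 weeks lay above all at 4, 6 and 8 weeks, with log2 fold changes of 0.70 (SE 0.14, adjusted p = 0.00144) from 4 to 12 weeks and 0.49 (SE 0.14, adjusted p = 0.0368) from 8 to 10 weeks. Cox5b, a zinc-binding subunit of the same complex, was at 75.7, 64.5 and 74.1 CPM at 4 weeks and 79.6, 54.5 and 53.8 at 12, a change of -0.19 (SE 0.15, adjusted p = 0.307). Within each library, log2 of Cox5a over Cox5b went from -1.26 ± 0.13 at 4 weeks through -1.10 ± 0.035 at 6, -0.73 ± 0.23 at 8 and -0.60 ± 0.25 at 10 to -0.35 ± 0.17 at 12 weeks (SD, n = 3), again without overlap of the end groups (exact two-sided permutation test, p = 0.1, the smallest possible here). This ratio was chosen with earlier results of these data known, so its test gives no separate evidence of the change. The rise of Cox5a kept its side of the threshold under every other setting run for 12 against 4 weeks except the leukocyte covariate, where it was 0.25. Its call from 8 to 10 weeks was less firm, and was lost with the 2 ages alone (adjusted p = 0.171), with the replicate block (0.0602), with the leukocyte covariate (0.371) and without replicate 1 or 2 of either age (0.0968 to 0.149). Its log2 fold change was 0.48 with the 2 ages alone and with the block, and 0.43 to 0.45 without those mice. With the covariate it was 0.31. An opposite-strand gene, Gm26631, overlaps Cox5a over 1138 bases and had 1.17% of its counts.

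Several subunits of complex IV have paralogs, and in the Cox4i and Cox6a pairs one form held most of the counts. Cox4i1 was at 149, 141 and 143 CPM at 4 weeks and 163, 139 and 145 at 12, against 3.63, 3.16 and 3.26 and 2.56, 2.07 and 3.24 for Cox4i2, the form known from lung and low oxygen. Neither passed the test, with 0.045 (SE 0.069, adjusted p = 0.601) for Cox4i1 and -0.35 (SE 0.19, adjusted p = 0.136) for Cox4i2. Cox7a2, the widespread form, fell from 70.3, 71.1 and 70.1 CPM to 59.2, 54.3 and 53.2, a change of -0.34 (SE 0.069, adjusted p = 0.00148). Cox7a2l, whose protein ties complexes III and IV into supercomplexes, rose from 121, 109 and 118 to 147, 126 and 132, a change of 0.22 (SE 0.071, adjusted p = 0.021). The rise of Cox7a2l missed the threshold without replicate 2 of the 4-week-old or replicate 1 of the 12-week-old mice. The muscle forms were low. Cox6a2 was at 1.01, 0.641 and 1.27 CPM at 4 weeks, 3.29, 3.67 and 1.73 at 10 and 2.33, 1.57 and 1.73 at 12, beside 143, 133 and 136, 127, 132 and 135 and 139.7, 115 and 109.9 for Cox6a1, and its change of 0.94 (SE 0.41, adjusted p = 0.0698) missed the threshold. Cox6a2 lies wholly within the opposite-strand gene Itgad, a leukocyte integrin that had 163% of its counts, and whether counting used strand is not given in the sources used here. Cox7a1 was at 0.262, 0.171 and 0.326 CPM at 4 weeks and 1.69, 0.167 and 0.566 at 12, where replicate 1, the library with intestinal genes, stood apart, and its change of 1.65 (SE 0.69, adjusted p = 0.0616) missed the threshold as well and was 0.52 without the 2 such libraries. Ndufa4, first assigned to complex I by name, fell from 83.9, 83.8 and 85.9 to 76.0, 64.1 and 68.2 CPM, a change of -0.28 (SE 0.070, adjusted p = 0.00476). Its paralog Ndufa4l2, a hypoxia target, was at 7.15, 7.01 and 6.73 and 7.20, 6.42 and 7.64 CPM, 0.025 (SE 0.12, adjusted p = 0.876). Cox8a fell as well, with a change of -0.26 (SE 0.093, adjusted p = 0.0325), and Cox6a1, Cox6b1 and Cox6b2 gave -0.18, -0.14 and -0.43, none of them past the threshold. Without the 2 libraries with intestinal genes, Cox5b (-0.40), Cox6a1 (-0.29) and Cox6b1 (-0.22) passed it downward and Cox7a2l missed it.

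In complex V, ATP synthase, 8 of 19 members fell and 0 rose by edgeR, and all 8 were nuclear. Of all genes, 27.2% were lower and 26.3% higher. The 19 include Atp5s (-0.55) and Atp5sl (0.20), which are not ATP synthase subunits in the strict sense. Subunit c, which builds the rotating ring, is encoded by 3 genes for 1 mature protein. Atp5g1 was at 77.5, 68.0 and 81.0 CPM at 4 weeks, 63.9, 63.5 and 51.3 at 6, 55.3, 49.5 and 48.4 at 8, 48.7, 57.7 and 63.2 at 10 and 59.8, 46.5 and 45.1 at 12 weeks. At the ends, Atp5g2 was at 142, 135 and 151 and 129.9, 115 and 118, and Atp5g3 at 128, 113 and 121 and 129, 91.9 and 96.0. Atp5g1 changed by -0.58 (SE 0.13, adjusted p = 0.00271), Atp5g2 by -0.24 (SE 0.073, adjusted p = 0.0149) and Atp5g3 by -0.20 (SE 0.11, adjusted p = 0.148), and the last of these missed the threshold. With library totals Atp5g2 was at 0.0065 and Atp5g3 at 0.048, so their direction depended on the scaling, and Atp5g1 was still called lower (-0.34). Atp5g3 passed, at -0.36, without the 2 libraries with intestinal genes. Within a library, log2 of Atp5g1 over Atp5g2 was -0.92 ± 0.062 at 4 weeks and -1.27 ± 0.14 at 12. Over Atp5g3 it was -0.68 ± 0.085 and -1.06 ± 0.069. Atp5g1 was lower relative to either in all 3 older mice (exact two-sided permutation test, p = 0.1 for each, the smallest possible). These ratios too were chosen with earlier results known, so the tests give no separate evidence of the change. Atp5l, a membrane subunit at the dimer interface, was at 137, 121 and 129.6 and 96.7, 101 and 96.2 CPM, a change of -0.40 (SE 0.083, adjusted p = 0.00175). Atp5e, the epsilon subunit of the central stalk, was at 149.7, 147 and 155 and 118, 116 and 104, a change of -0.42 (SE 0.10, adjusted p = 0.00385). The catalytic subunits Atp5a1 and Atp5b gave -0.10 (SE 0.065, adjusted p = 0.219) and -0.079 (SE 0.075, adjusted p = 0.389), both short of the threshold, and were named after their values were seen. mt-Atp6 was at 2329, 3031 and 3123 CPM at 4 weeks and 2371, 2416 and 2073 at 12, a change of -0.31 (SE 0.13, adjusted p = 0.062). mt-Atp8 was at 15.9, 17.8 and 18.8 and 26.0, 15.3 and 13.1, 0.049 (SE 0.28, adjusted p = 0.899), under the counting limit given above.

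**Figure D2:**
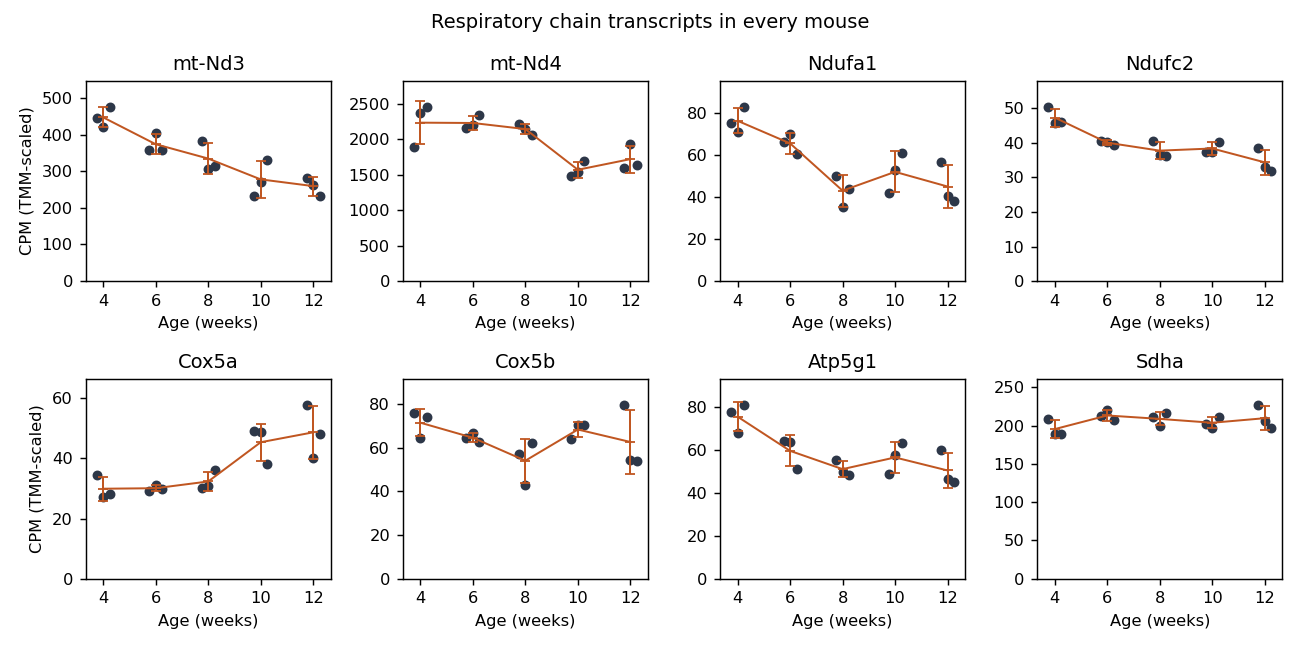
CPM on the TMM scale (y axis, starting at 0) of mt-Nd3, mt-Nd4, Ndufa1, Ndufc2, Cox5a, Cox5b, Atp5g1 and Sdha against age in weeks (x axis), with 1 point per mouse and the mean and SD of 3 mice as lines and bars. mt-Nd3, Ndufa1, Ndufc2 and Atp5g1 are lower in all 12-week-old than in all 4-week-old mice, mt-Nd4 is lower at 10 than at 8 weeks in all 3 mice, Cox5a is higher in all 6 mice of 10 and 12 weeks than in the 9 younger mice, and Sdha stays between 189 and 227 CPM. With library totals in place of TMM, mt-Nd4 stays negative from 4 to 12 weeks but misses the threshold.

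Interval by interval, edgeR called members from 8 to 10 weeks only, a step given in the next paragraph. At the other steps it called few or no genes of any kind. From 4 to 6 weeks edgeR called 0 of 95 members, with 10 at an unadjusted p under 0.05 and 1, Uqcrh, by DESeq2, beside 0.0906% of all genes called and 8.67% at an unadjusted p under 0.05. Members were still mostly on the lower side, 79 of 95 below 0 with a median of -0.096 against 0.0085 for all genes, and the median was -0.051 without replicate 3 of the 6-week-old mice. Relative to all genes it was -0.10, -0.069 with the leukocyte covariate and -0.15 without the 2 libraries with intestinal genes. From 6 to 8 weeks edgeR again called 0, with 14 at an unadjusted p under 0.05 and 1, Ndufa1, by DESeq2, beside 0% of all genes called and 18.0% at an unadjusted p under 0.05. Of 95 members 84 lay below 0 with a median of -0.12 against -0.011, and the median was -0.064 without replicate 2 of the 8-week-old mice. Over this step 22 of 22 leukocyte markers lay above 0, with a median of 2.52, and 19 had an unadjusted p under 0.05. Relative to all genes, the median of the members was -0.10, -0.028 with the leukocyte covariate and -0.071 without the 2 libraries with intestinal genes, and that of the mt-encoded members turned from -0.12 to 0.058 with the covariate. Ndufa1 had -0.61 (SE 0.17, adjusted p = 0.172), Atp5g2 -0.26 (SE 0.073, adjusted p = 0.172) and Atp5e -0.33 (SE 0.10, adjusted p = 0.173) over that step, and without replicate 1 of the 8-week-old mice 2 members were called. With library totals the median of this step was -0.0099. From 10 to 12 weeks edgeR called 0, with 2 at an unadjusted p under 0.05 (Cox7a2 and mt-Nd4l) and 0 by DESeq2, beside 0% of all genes called and 7.52% at an unadjusted p under 0.05. Over that step 12 of 13 mt-encoded members lay above 0, with a median of 0.12, and the nuclear members had a median of -0.071. Both rested on single mice. Relative to all genes, the mt-encoded value went from 0.12 to 0.029 without replicate 1 of the 10-week-old and 0.039 without replicate 2 of the 12-week-old mice. The nuclear value went from -0.069 to -0.0030 without replicate 3 of the 12-week-old mice and to -0.14 without replicate 1, the library with intestinal genes. Tested over the 5 ages jointly, 35 of 95 members passed, 12 of 13 mt-encoded and 23 of 82 nuclear, beside 56.0% of all genes. With library totals 1 of 13 mt-encoded and 23 of 82 nuclear members passed that test, and without replicate 1 of the 12-week-old mice 53 members did. Leaving out both libraries with intestinal genes, 7 of 13 mt-encoded and 34 of 82 nuclear members passed, beside 7532 of all 16710 genes tested.

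Between 8 and 10 weeks the mt-encoded and the nuclear members parted. Of the 13 mt-encoded members 12 were lower at 10 weeks, with a median log2 fold change of -0.34, and of the 82 nuclear members 65 were higher, with a median of 0.085, against -0.0050 for all genes. The test called 4 mt-encoded members lower and 1 nuclear member, Cox5a, higher, beside 16.8% of all genes, made up of 8.37% lower and 8.40% higher. At an unadjusted p under 0.05 there were 21 of 95, beside 37.9% of all genes. mt-Nd4 was at 2214, 2146 and 2063 CPM at 8 weeks and 1475, 1534 and 1695 at 10, and changed by -0.45 (SE 0.11, adjusted p = 0.0282). The groups did not overlap, nor did they for mt-Nd2 (1229, 1114 and 1180.4 CPM against 833, 892 and 948), which changed by -0.40 (SE 0.11, adjusted p = 0.033). mt-Cytb changed by -0.43 (SE 0.12, adjusted p = 0.0353) and mt-Co1 by -0.37 (SE 0.11, adjusted p = 0.0422) over the same step. These calls were lost when single mice were left out. Leaving out replicate 1 or 2 of the 8-week-old or replicate 1 or 2 of the 10-week-old mice left 0 members called. So did fitting the 2 ages alone, the replicate block and the leukocyte covariate. How many of all genes were called in those fits is not reported here. Without those single mice, the median of the mt-encoded members relative to all genes was still -0.34 to -0.26. Without the 2 libraries with intestinal genes, neither of them from these ages, mt-Nd4 and Cox5a were still called, beside 1144 of all 16710 genes tested. DESeq2 called 8 lower and 6 higher. Library totals gave 1 lower and 12 higher, and moved the median of all genes up by 0.11. The percentages of all genes above are those of the edgeR fit with TMM. Relative to all genes, the median of the nuclear members was 0.090, and 0.058 without replicate 2 of the 8-week-old mice. That of the mt-encoded members was -0.33, and -0.26 without replicate 1 of the 10-week-old mice. Within each library, where scaling cancels, the mean log2 CPM of the mt-encoded members minus that of the nuclear members stayed near 4.44 ± 0.22 (4 weeks), 4.48 ± 0.15 (6 weeks) and 4.45 ± 0.086 (8 weeks), then stood at 4.03 ± 0.11 in the 10-week-old and 4.26 ± 0.17 in the 12-week-old mice (SD, n = 3). All 3 values at 10 weeks, 3.90 to 4.11, lay below all 6 values at 6 and 8 weeks, the lowest of which was 4.36, and those at 12 weeks lay between 4.10 and 4.43. Complexes I, III and IV each showed the drop, complex IV from 7.43 ± 0.092 at 8 weeks to 6.90 ± 0.11 at 10, and complex V, with the uncertain mt-Atp8, went from 1.12 ± 0.10 to 0.96 ± 0.33. Over the same step 7 of 12 islet endocrine genes fell, and their part in the change was not tested. Of 22 leukocyte markers 6 rose, and with the leukocyte covariate the medians relative to all genes were -0.22 for the mt-encoded and 0.17 for the nuclear members, in place of -0.33 and 0.090.

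**Figure D3:**
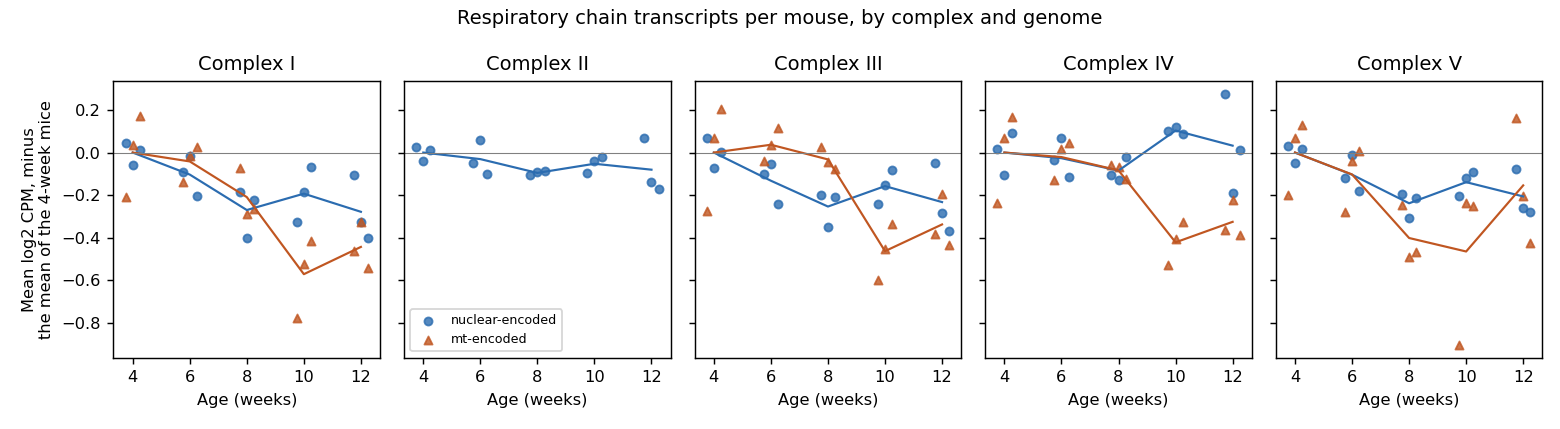
Mean log2 CPM of the members of each complex (panels I to V) minus the mean of the 4-week-old mice (y axis, TMM scale) against age in weeks (x axis), with 1 symbol per mouse for nuclear-encoded (circles) and mt-encoded (triangles) members and lines through the means of 3 mice. The mt-encoded means dip at 10 weeks in complexes I, III and IV, and the nuclear mean of complex IV, which includes the low muscle forms, is higher at 10 than at 8 weeks. Another scaling moves the circles and triangles of a mouse by the same amount, so the distance between them stays and the distance to 0 does not.

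**Figure D4:**
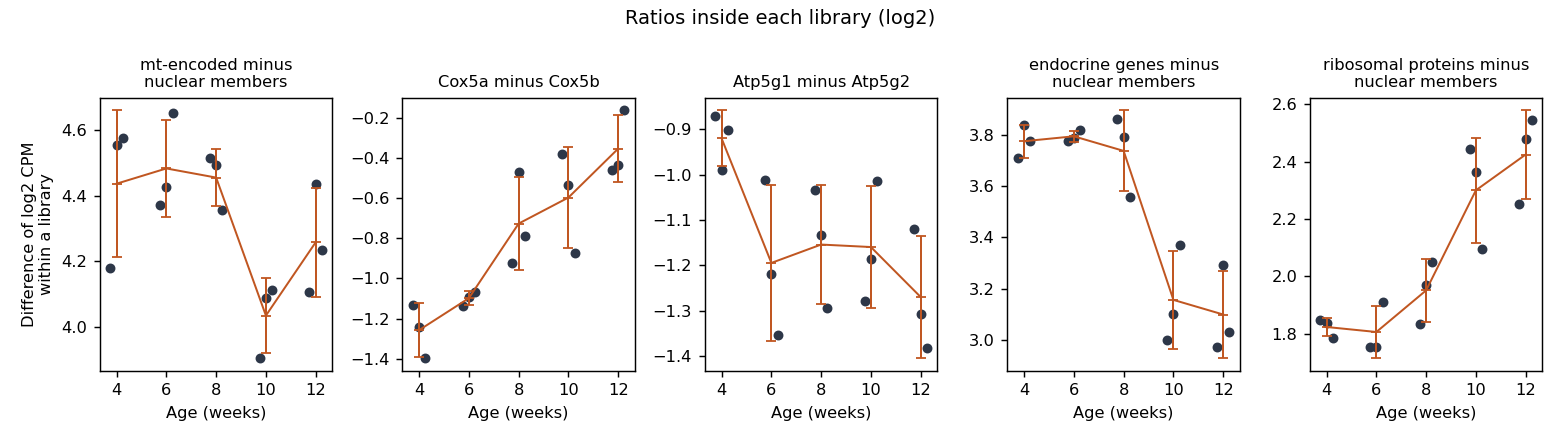
Differences of log2 CPM taken inside each library (y axis) against age in weeks (x axis), with 1 point per mouse and the mean and SD of 3 mice, for mt-encoded minus nuclear-encoded members, Cox5a minus Cox5b, Atp5g1 minus Atp5g2, and the islet endocrine and cytosolic ribosomal protein genes minus the nuclear members. The first is lowest at 10 weeks (4.03 ± 0.11), Cox5a over Cox5b climbs from -1.26 ± 0.13 to -0.35 ± 0.17, and the endocrine genes drop from 3.74 ± 0.16 at 8 weeks to 3.16 ± 0.19 at 10.

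Relative to other groups of genes in the same library, the nuclear members shifted with age. The mean log2 CPM of the endocrine genes minus theirs, which is not a comparison per length, went from 3.77 ± 0.064 at 4 weeks to 3.10 ± 0.17 at 12. For the 80 cytosolic ribosomal proteins it went from 1.82 ± 0.032 to 2.42 ± 0.15, in each case without overlap between the end groups. The nuclear members thus lost ground to ribosomal protein genes and gained it on endocrine genes, under any scaling. Of the ribosomal protein genes 64 of 80 rose and 3 fell from 4 to 12 weeks on the TMM scale, beside 26.3% and 27.2% of all genes. Rpl39, for example, rose by 0.67 (SE 0.079, adjusted p = 0.000171).

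Mice of one age also differed from each other. The SD of log2 CPM within an age, pooled over the 5 ages, ran from 0.0431 for Ndufs4 and 0.0518 for Atp5h to 0.304 for Atp5k among the nuclear members above 5 CPM. Over the 81 nuclear members with a principal GENCODE messenger that passed the filter, this SD and messenger length had a Spearman rho of -0.37, given as a description, since the points share their libraries. The 19 with a messenger under 600 bases had a median SD of 0.136 and a median log2 fold change from 4 to 12 weeks of -0.26, and the other 62 had 0.115 and -0.19. Single mice were at the edge of their age for most members, and replicate 2 of the 8-week-old mice was the lowest of its age in 56 of the 82 nuclear members that passed the filter, with Atp5k at 14.9 CPM against 25.2 and 24.9 in the others of that age, and Ndufs6 at 19.1 against 31.8 and 30.6. Replicate 1 of the 12-week-old mice was the highest of its age in 73 of 82, Cox5b for example at 79.6 CPM against 54.5 and 53.8, and without it 57 members were called between 4 and 12 weeks. Replicate 2 of the 6-week-old mice was highest in 67, replicate 2 of the 4-week-old mice lowest in 65 and replicate 1 of the 10-week-old mice lowest in 62. Atp5k, Ndufs6 and Atp5h were named after their values were seen. RNA quality of the libraries is not given in the sources used here.

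Genes that build, feed or serve the chain were counted in the same comparison of 12 with 4 weeks, on the TMM scale. Of 43 assembly factors that passed the filter 13 fell and 2 rose, with a median of -0.13. Among them were Coa3, a complex IV assembly factor, at -0.56 (SE 0.11, adjusted p = 0.000985) and Ttc19, which serves complex III, at -0.53 (SE 0.10, adjusted p = 0.00115). Mitochondrial ribosomal proteins had 20 of 77 lower and 5 higher with a median of -0.11, for example Mrpl1 at -0.50 (SE 0.089, adjusted p = 0.000738) and Mrpl17 at -0.43 (SE 0.071, adjusted p = 0.000524). Of 29 genes for mitochondrial DNA expression and biogenesis 3 fell and 4 rose, with a median of 0.050. Ssbp1, the single-strand DNA-binding protein of the mitochondrial replisome, changed by -0.45 (SE 0.083, adjusted p = 0.000935), and Lrpprc, which stabilizes mitochondrial messengers, by -0.30 (SE 0.072, adjusted p = 0.00435) and by -0.33 (SE 0.072, adjusted p = 0.0237) from 8 to 10 weeks. A part of Lrpprc in the levels of the mt-encoded members was not tested. Values of the other genes of this list from 8 to 10 weeks are not reported here. Besides Ssbp1 and Lrpprc, Tfb1m fell from 4 to 12 weeks, at -0.35. The 4 that rose were Ppargc1b, a coactivator of mitochondrial biogenesis, at 0.98 (SE 0.20, adjusted p = 0.00173), the nuclear receptor gene Esrra at 0.56, the polymerase gene Polg at 0.24 and Gabpa at 0.20, and these 5 were named after their values were seen. In the tricarboxylic acid cycle 7 of 16 fell and 1 rose, with a median of -0.23. The riser was Cs, citrate synthase, at 0.58 (SE 0.10, adjusted p = 0.000632). Of 19 mobile carriers and exchangers 8 fell and 2 rose, with a median of -0.21. Coq9 was at -0.46 (SE 0.090, adjusted p = 0.00132) and Coq4 at -0.35 (SE 0.10, adjusted p = 0.00961), both in ubiquinone synthesis. Glycolysis enzymes were split, 7 of 15 higher and 4 lower with a median of 0.14. They included Ldha, lactate dehydrogenase, which beta cells normally keep low, at 2.54 (SE 0.43, adjusted p = 0.000617), and Pfkp at 1.36 (SE 0.22, adjusted p = 0.000514). As for the members, each count stands beside 27.2% of all genes lower and 26.3% higher, and leukocyte markers moved with all of them.

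The promoters of the nuclear members were searched for the motifs of factors known to drive nuclear genes for mitochondria. RefSeq promoters (GRCm38.p6, the assembly of mm10) matched 70 of the 85 nuclear members by symbol or synonym. The 250 bases before the start were read on both strands, a motif counting once per promoter even where it overlaps another. NRF1 (GCGCA, any base, then GCGC) was in 13 of 70 members, 18.6%, against 4.23% of all 27025 promoters and 8.11% of the 12496 whose genes were tested. For ETS factors such as GABPA (CCGGAAG) the shares were 17.1%, 7.83% and 13.6%. They were, in the same order, for ERRA (AAGGTCA) 7.14%, 4.70% and 3.68%, for YY1 (AAGATGG) 2.86%, 5.18% and 4.99%, and for SP1 (GGGCGG) 37.1%, 35.4% and 60.2%. Among the matched members that fell from 4 to 12 weeks, 5 of 30 held the NRF1 letters and 7 of 30 the ETS letters, and among those that did not fall 8 of 38 and 5 of 38. The 130 bases before the start are printed 5′ to 3′ for 4 members that moved differently, with matches in capitals. Sdha, which did not pass the test, held the NRF1 letters at 3 places, Ndufa11, which fell, held them once, Atp5g1, which fell, held none of the 5 motifs in this window, and Cox5a, which rose, held the SP1 letters once.
Sdha (chr13:74350241-74350370, minus strand): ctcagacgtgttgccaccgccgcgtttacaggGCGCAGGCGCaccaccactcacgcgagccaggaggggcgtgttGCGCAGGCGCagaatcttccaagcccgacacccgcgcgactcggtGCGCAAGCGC
Ndufa11 (chr17:56717632-56717761, plus strand): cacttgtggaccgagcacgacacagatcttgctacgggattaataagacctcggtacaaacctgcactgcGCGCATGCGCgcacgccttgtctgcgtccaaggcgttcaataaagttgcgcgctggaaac
Atp5g1 (chr11:96075632-96075761, minus strand): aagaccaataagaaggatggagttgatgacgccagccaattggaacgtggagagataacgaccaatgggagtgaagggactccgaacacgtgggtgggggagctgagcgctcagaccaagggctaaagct
Cox5a (chr9:57521102-57521231, plus strand): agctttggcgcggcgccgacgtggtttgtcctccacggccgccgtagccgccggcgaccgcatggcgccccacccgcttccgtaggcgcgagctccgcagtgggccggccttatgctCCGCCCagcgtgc
A match is a run of letters and no evidence of binding.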

How the data were processed

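RNA of islets from 15 NOD females was sequenced as polyadenylated libraries, 3 mice at each of 5 ages. The authors trimmed, aligned and counted reads per gene in CLC Genomics Workbench 23.0 with default settings on mm10, and the annotation version and strand setting are not given in the sources used here. The deposited counts are whole reads per gene with no normalization and were used for all tests, and the deposited TPM were used for levels per length only. A further 30 per-sample columns were not used. No libraries held identical values.

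Counts were filtered with filterByExpr, scaled by TMM and fitted with edgeR 4.0.16 (R 4.3.3) with 1 mean per age over all 15 mice, using the quasi-likelihood test and Benjamini-Hochberg adjustment over the 16554 genes kept. Logs used a prior count of 2. A gene was called at an adjusted p under 0.05. The fit was tested on simulated data with known changes in 50 genes per size, set as 12 against 4 weeks. It recovered 84% of changes to 0.5-fold and 82% of 2-fold rises. Of changes to 0.667-fold it recovered 26%, and of 1.5-fold rises 34%. Only 50 genes per size, of 16341 fitted, were changed, while in the data 53.5% of all genes passed from 4 to 12 weeks. The threshold that the adjustment sets therefore differed, and these rates do not give the share of members that went uncalled. Alternatives were DESeq2 1.42.0, the edgeR exact test, other scalings, no filter, the ages compared alone, a replicate block, a leukocyte covariate, leaving out each mouse and, added after seeing the data, leaving out the libraries whose intestinal genes other than Vil1 summed above 1 CPM. Lengths came from GENCODE vM21. Genes were named as mt-encoded members, complex II, paralog sets, the smallest p per complex and step, the most abundant nuclear member, members against the direction of their complex and the leading genes of each pathway list. Members, lists and tests were chosen with earlier results of these data known. Values of some genes that the naming rule covers are not reported here.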

Additional observations from a re-analysis of the deposited data

How the results depend on the processing

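Relative to all genes, the median of the members from 4 to 12 weeks was -0.17 with TMM, -0.18 with library totals and -0.0046 with the leukocyte covariate. Leaving out single mice moved it from -0.10 to between -0.15 and -0.040 from 4 to 6 weeks, from 0.075 to between 0.032 and 0.11 from 8 to 10 weeks and from -0.054 to between -0.13 and 0.0086 from 10 to 12 weeks. From 4 to 12 weeks, 48 members were called with TMM, 30 with DESeq2 size factors, 16 with library totals, 31 with the 2 ages alone, 0 with the leukocyte covariate (as for all genes) and 23 to 57 when mice were left out in turn. The medians of that comparison were 0.021 with library totals and -0.070 with the leukocyte covariate. From 8 to 10 weeks, 5 were called with TMM, 13 with library totals, 14 with DESeq2, 0 with the 2 ages alone, 0 with the leukocyte covariate and 0 to 10 when mice were left out. The median was 0.18 with library totals, where that of all genes was 0.10. From 4 to 6 weeks and from 6 to 8 weeks DESeq2 called 1 each, leaving out mice gave 0 to 2 for the latter, and its median with library totals was -0.0099. Without the 2 libraries with intestinal genes, chosen after seeing the data, 55 were called from 4 to 12 weeks, 2 from 8 to 10 weeks and 41 jointly. Of all 16710 genes tested, 7943, 1144 and 7532 were called in the same order. Jointly, 0 were called with the leukocyte covariate and 25 to 53 when mice were left out. Where no count of all genes stands beside the members, a shift in the members and one in all calls cannot be told apart.

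The mt-encoded share, taken over counts in place of TPM, was 2.62%, 2.61%, 2.65%, 2.23% and 2.46% at 4, 6, 8, 10 and 12 weeks, which differs from the TPM share because lengths no longer enter.

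Values of single members were taken under the other settings only for the genes of the naming rule, so the members listed here are not all that changed sign from 4 to 12 weeks, and the cause was not tested. With library totals, where the median of all members was above 0, the sign changed among others for mt-Co1 (0.077), Sdhc (0.072), Cox5b (0.051), Cox6a1 (0.065), Cox6b1 (0.10), Atp5g2 (0.00648), Atp5g3 (0.048), Ndufs1 (0.030) and Uqcrh (0.23). With the leukocyte covariate it changed for mt-Nd2 (0.0018), mt-Nd4l (0.41), mt-Cytb (0.0012), mt-Co1 (0.012), Cox4i1 (-0.00294) and Uqcrb (0.0030), and mt-Nd4l from 8 to 10 weeks (0.0016). Uqcrh gave 0.047 with DESeq2 size factors, 0.041 with the 2 ages alone and 0.046 with DESeq2. Without the 2 libraries with intestinal genes the sign changed for mt-Atp8 (-0.30), Sdhb (-0.031), Cox4i1 (-0.023) and Uqcrh (0.0029). Leaving out 1 mouse at a time gave -0.30 to 0.24 for mt-Atp8, -0.032 to 0.14 for Sdhb, -0.023 to 0.090 for Cox4i1, -0.80 to 0.14 for Cox6b2, -0.033 to 0.090 for Ndufa4l2 and -0.041 to 0.023 for Uqcrh, and -0.0065 to 0.49 for mt-Atp8 from 8 to 10 weeks.

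Replicate numbers of the labels did not mark shared mice, and no comparison had all 3 same-numbered correlations above 0.1. Some were large, however. For replicates 1, 2 and 3 they were 0.51, -0.12 and 0.49 from 6 to 8 weeks and -0.50, -0.050 and -0.46 from 4 to 6 weeks. With the replicate block 40 members were called from 4 to 12 weeks, all of them among the 48, and 0 from 8 to 10 weeks. Cox7b2, Cox8b and Cox8c did not pass the filter on low counts and were not tested, where 3 counts correspond to 0.0721 to 0.118 CPM in a library, and Cox7a1 and Cox6b2 went down to 4 counts in a library.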
